A study of Mus musculus with 24 samples.

Results

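Thymuses of mice without both p27Kip1 and stathmin (double knockout, DKO) were compared with thymuses of wild-type (WT) mice. The comparison used 12 of the 24 arrays of the series, 6 per genotype, chosen by the genotype given in the labels. All mice were 15-week-old C57BL/6 animals, and each array is a separate mouse per the labels, with 3 females and 3 males per genotype but without the sex of each mouse. The series also holds 6 arrays of mice lacking p27 only and 6 of mice lacking stathmin only, whose values stand beside those of the double knockout where named. The labels do not say which part of either gene was removed, or how. The title of the series names the role of both proteins in cell proliferation in the animal as its question. Thymus RNA was labelled with Cy5, and the Cy3 label of every 2-colour Agilent array went to a shared reference, RNA pooled from fibroblasts of every genotype in the study. A log2 ratio of 0 is the level of that reference, and every difference below is a difference of log2 ratios.

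p27Kip1, the product of Cdkn1b, binds cyclin-dependent kinases and holds cells before DNA replication, and mice that lack it are known for enlarged organs, the thymus among them. Stathmin, the product of Stmn1, binds free tubulin and destabilises microtubules, and p27 can bind stathmin. The thymus makes T cells: thymocytes are selected on cortical epithelium, and medullary epithelium, directed by Aire and Fezf2, displays proteins of other tissues to remove self-reactive cells.

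Every genotype had 1 array on each of 6 slides, WT always at position 1 and DKO at position 4, so that effects of position and of genotype cannot be told apart. Of 41174 gene probes, 30070 were kept because at least 6 arrays read them well above background in Cy5, and these covered 21193 genes, each read by its brightest probe. Between 62.8% and 87.7% of spots per array were well above background in Cy5, and the number of arrays limits the precision. The 99th percentile of Cy5 ran from 200.2 to 320.0 kilo-units in DKO and from 56.3 to 285.7 in WT. WT replicates 4 and 6 were dimmest, at 56.3 and 110.4, and correlated least with the other 11 arrays (0.809 and 0.801 on average, against 0.861 to 0.911). The p27 knockout arrays, whose values stand beside these below, ran from 19.4 to 170.6. The part of brightness in their values was not tested. Defining genes of double-positive thymocytes, Cd4, Cd8a and Rag1 among them, were present in both genotypes, with a list median log2 ratio of 4.78 to 5.99 in WT and 4.77 to 5.34 in DKO. The Y-linked Kdm5d was well above background on replicates 4, 5 and 6 of each genotype and on no other of the 12 arrays, so slide, replicate number and this sex-linked gene ran together.

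Stmn1 RNA fell in the double knockout on the probe that separated the genotypes most. On probe A_52_P319161 the WT log2 ratios were 2.69, 3.16, 3.24, 3.33, 3.34 and 2.83 in replicates 1 to 6, and the DKO ratios were -3.80, -3.37, -2.88, -3.19, -2.84 and -3.05. All 6 DKO arrays lay far below all 6 WT arrays. The DKO mean was -3.19 ± 0.36 (SD, n = 6), 77.9-fold below the WT mean (difference -6.28 ± 0.15 SE, limma adjusted p = 1.64e-06 over all probes). The brighter probe A_51_P495641, which stands for Stmn1 among the genes and was saturated on 3 arrays, read 3.54 ± 0.26 in WT and 1.88 ± 0.54 in DKO without overlap. Its difference of -1.66 ± 0.22 (SE) did not pass with slide as a block (adjusted p = 0.165 over genes) and passed without the block (adjusted p = 0.0245).

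Cdkn1b read lower in every DKO mouse that had a value, and 1 of these mice stood apart. On probe A_51_P146126 the WT ratios were 1.51, 2.06, 1.85, 1.37 and 2.19 in replicates 2 to 6, and the DKO ratios were 0.97, -1.41, -0.84, -0.62 and -0.61. The spots of replicate 1 of both genotypes were left out as outliers by the scanner software. The difference of -2.30 ± 0.40 (SE), 4.91-fold, was negative on 5 of 5 slides, with adjusted p = 0.184 over genes with slide as a block and 0.0445 without it. DKO replicate 2 lay between the WT range and the other 4 DKO values, with a Cy5 intensity of 29087 against 6507 to 10189 in those 4 and 10255 to 50910 in WT. Without the arrays of slide 2 the difference was -2.74 (adjusted p = 0.164 over probes). Probe A_51_P169173, printed 10 times on each array, cleared background on 6 WT and 0 DKO arrays. There WT was at least 1.76-fold above DKO (adjusted p = 0.229 over probes), and its DKO values, all at background, have no order. The Stmn1 probe A_52_P319161 read -3.37 in the same mouse, within the DKO range. The array labelled double knockout replicate 2 is named below where it stands apart in the Cdkn1b neighbours and Klra genes described. The counts of called genes were the same without slide 2 (0 higher and 1 lower). The last Cdkn1b probe, A_52_P673863, was near background, well above it on 3 arrays of each genotype.

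**Figure D1:**
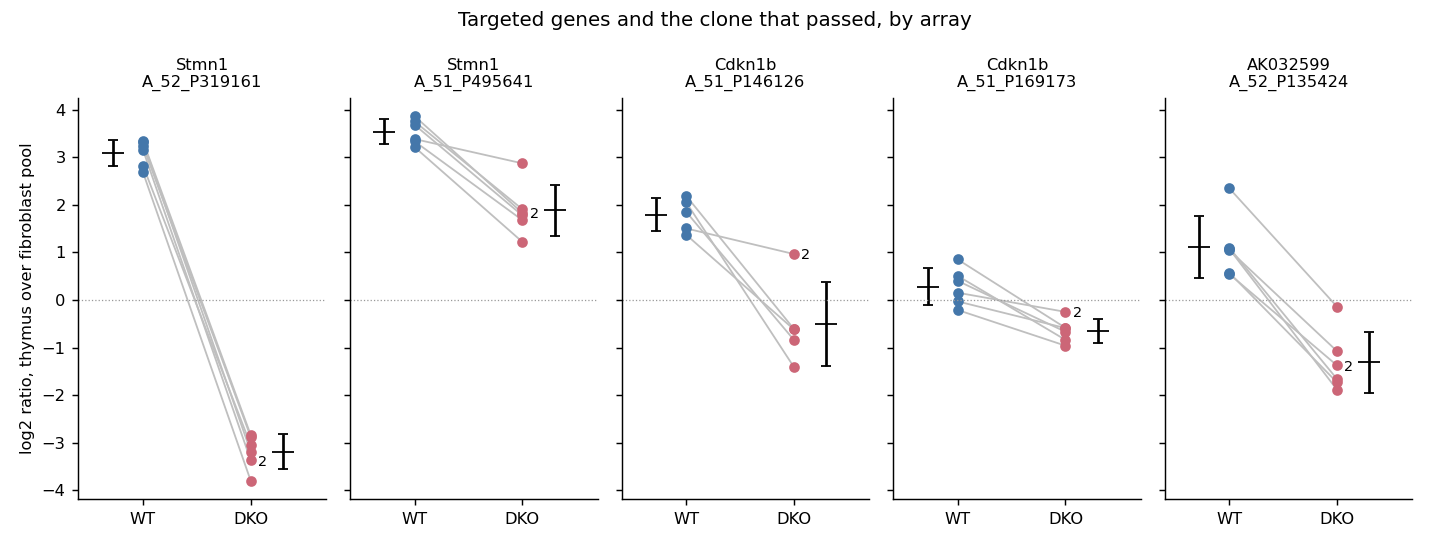
Log2 ratio of thymus over fibroblast pool (vertical axis) for 2 probes each of Stmn1 and Cdkn1b and 1 of AK032599 in WT (blue) and DKO (red) mice; grey lines join arrays of 1 slide, bars are mean ± SD, and the numeral 2 marks DKO replicate 2. Probe A_52_P319161 averages -3.19 in DKO, below every WT mouse, and on A_51_P146126 DKO replicate 2, at 0.97, lies above the other DKO mice.

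Across all genes with slide as a block, 0 of 21193 passed as higher (0%) and 1 passed as lower (0.00472%) at a limma adjusted p under 0.05. Over single probes 3 passed as lower (0.00998%), on Stmn1, AK032599 and Rpl39l. At an unadjusted p under 0.05 there were 1199 higher genes (5.66%) and 998 lower genes (4.71%), 2197 in all. That total was 1324 without replicate 4, 1178 without replicate 6, 968 with Cy5 brightness as a covariate and 823 without slides 4 and 6. It was 1629 without replicate 1, and it rose to 2270, 2369 and 2931 without replicates 2, 3 and 5. The gene that passed was AK032599, a cDNA clone named as in the array's design. Its WT ratios had a minimum of 0.55, a median of 1.06 and a maximum of 2.35, and its DKO ratios -1.89, -1.52 and -0.14, so the groups did not overlap. AK032599 fell by 2.43 ± 0.18 (SE) on the log2 scale, 5.38-fold, lower on 6 of 6 slides (adjusted p = 0.0121). It read -2.38 in the stathmin knockout and 1.08 in the p27 knockout, each against the same WT arrays. Its call was lost without replicate 1, 3, 4, 5 or 6 (adjusted p up to 0.142) and held without replicate 2.

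Without the slide block limma passed 47 genes (0.222%), 39 higher (0.184%) and 8 lower (0.0377%), and 9.81% had an unadjusted p under 0.05. In 162 genes (0.764%) every DKO array lay above every WT array, and in 59 genes (0.278%) every one lay below. Of the 39 genes higher without the block, 32 had their lowest WT value in replicate 4 or 6, the dim arrays, against 41.5% of all genes. Leaving out those 2 WT arrays, the fit without the block passed 3 genes: Grp at 2.11 and Adamdec1 at 1.54 rose (adjusted p = 0.0457 each), and Rpl39l fell by 2.24 (adjusted p = 0.0205). With the slide block and Cy5 brightness as a covariate, AK032599 was again the only gene to pass (adjusted p = 0.0443) and Cdkn1b had an adjusted p of 0.878 over probes.

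The 12 named genes higher in DKO are those with the lowest p among genes that differed by at least 1 with 1 sign on all slides, and other genes differed by more. With the block none of the 12 passed (adjusted p = 0.162 to 0.178), and all 12 were higher on 6 of 6 slides, a feature that was part of their choice (3.24% of genes were higher and 2.92% lower on every slide). Grp, which encodes gastrin-releasing peptide, had WT ratios of 0.81 at the lowest, 1.34 at the median and 1.74 at the highest, and DKO ratios of 2.87, 3.63 and 4.45. Its groups were more than 1 log2 unit apart at their nearest arrays, and the difference was 2.28 ± 0.28 (SE), 4.87-fold (adjusted p = 0.162 with the block and 0.00405 without). Adamdec1, a protease of macrophages and gut immune tissue, went from a WT median of 3.77 (2.68 to 4.38) to a DKO median of 5.44 (5.28 to 6.08). Here too the groups did not overlap, at a difference of 1.81 ± 0.24 (adjusted p = 0.165 and 0.0245). Alox15, which oxidises arachidonic acid, had a WT median of 0.74 (-0.01 to 1.18) and a DKO median of 2.26 (1.94 to 3.06), again without overlap (difference 1.66 ± 0.26, adjusted p = 0.178 and 0.0263).

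Cd207 encodes langerin of dendritic cells. It read 0.25 to 0.96 in WT and 1.53 to 2.23 in DKO, a difference of 1.26 ± 0.18 (SE). Eraf, the erythroid chaperone of alpha globin, differed by 1.54 ± 0.21, the olfactory cytochrome Cyp2g1 by 1.43 ± 0.17, the protease Adam28 by 1.29 ± 0.17 and Avil (advillin, an actin-binding protein) by 1.29 ± 0.19. These 5 did not overlap between the groups and passed without the block (adjusted p = 0.0234 to 0.0405). Ubxn11 at 1.87, Calcb (a calcitonin gene-related peptide) at 1.74, Cadps2 (which primes secretory vesicles) at 1.35 and Misp (a spindle-positioning protein) at 1.21 did not pass in either fit. Of the 12 genes, 10 had their lowest WT value in replicate 4 or 6. Without slides 4 and 6 the differences of all 12 ran from 0.99 for Misp to 1.89 for Grp, and their sign was fixed by the choice of genes.

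The 12 named genes lower in DKO, chosen by the same rule, include Stmn1 and Cdkn1b, and of the other 10 Rpl39l came closest to the threshold after AK032599. Rpl39l is a copy of the ribosomal protein gene Rpl39, so a probe may read both. It had WT ratios of -4.57 to -3.20 with a median of -4.12 and DKO ratios of -6.57 to -6.09 with a median of -6.33. No arrays overlapped, and the difference was -2.37 ± 0.23 (SE), 5.17-fold (adjusted p = 0.0512 over genes, 0.0402 over probes and 0.00333 over genes without the block). In the stathmin and p27 knockouts it read -0.26 and 0.73 against WT.

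Tfpi, an inhibitor of coagulation, read -3.67 at the WT median and -4.93 at the DKO median (difference -1.27 ± 0.20). Adam12, a membrane protease, read -1.72 and -2.94 (difference -1.14 ± 0.20). Rpl11, a ribosomal protein that also restrains Mdm2, read 1.88 and 0.64 (difference -1.17 ± 0.17). None of these 3 genes had overlapping groups, and each passed only without the block (adjusted p = 0.0245, 0.0405 and 0.0339). S100a9 (a calcium-binding protein of neutrophils), Tox3, Olfr1134 and Speer3 differed by -1.63 to -1.09 (Speer3 by -0.99 without slides 4 and 6), overlapped between genotypes and passed in neither fit. Olfr1134 and Speer3 belong to multigene families whose copies a probe may not separate. Klra10 and Klra8 are described with their family.

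**Figure D2:**
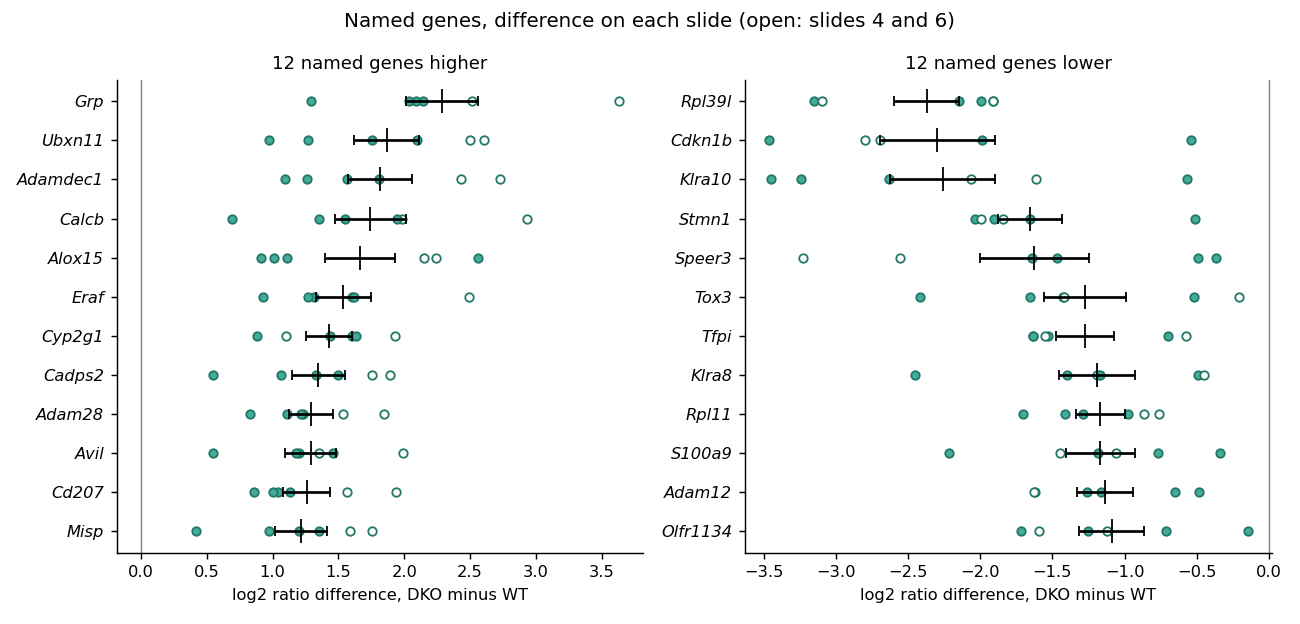
Difference of log2 ratios, DKO minus WT, on each slide (circles, open for slides 4 and 6) for the 12 named genes higher and the 12 lower in DKO; black bars are the fitted difference ± SE. Every circle lies on 1 side of 0, which the choice of genes required, and the open circles of slide 6 carry the largest difference for Grp, at 3.63.

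Genes that neighbour the targeted genes read both higher and lower in DKO. Among the 30 measured genes on each side of Cdkn1b (chromosome 6, ordered as in assembly GRCm38.p6), 24 of 60 (40.0%) had an unadjusted p under 0.05, against 10.4% of all genes. Of these 24, 11 read higher and 13 lower, and none passed with slide as a block (without the block, Hebp1 alone, adjusted p = 0.0405). Around Stmn1 on chromosome 4 it was 16 of 60 (26.7%), 11 higher and 5 lower, also with 0 passing. Whether these shares differ from that of other genes was not tested. Without the block Slc30a2 (a zinc transporter) and Rpl11 passed there, higher and lower (adjusted p = 0.0405 and 0.0339).

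Hebp1, a haem-binding protein 4 genes from Cdkn1b, read -0.54 to -0.17 in WT and 0.12 to 0.92 in DKO. These groups did not overlap, at a difference of 0.93. Emp1, a membrane protein 8 genes away, differed by 0.92 and Atf7ip by -0.71. In DKO replicate 2 Hebp1 and Emp1 were the lowest of DKO, at 0.12 and -2.78, and Atf7ip the highest, at 1.73. Against the same WT arrays, the p27 knockout read 0.85, 1.19 and -0.82 for these 3 genes and the stathmin knockout 0.29, -0.14 and -0.17. Some other neighbours at an unadjusted p under 0.05 read in the same direction in DKO and the p27 knockout, and some in opposite directions. Arhgdib differed from WT by -0.76 in DKO and -0.70 in the p27 knockout, and Dera by 0.81 and 0.93. Pbp2 differed by -1.87 and 1.44 and Prh1 by -1.23 and 2.09. For both, the dim WT replicates 4 and 6 were the highest of WT. Dera read 0.37 in DKO replicate 2, within the WT range of 0.22 to 0.86, and 1.38 to 1.85 in the other DKO mice.

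On chromosome 4, Ubxn11 lies 10 genes from Stmn1 and read -0.37 to 1.78 in WT and 2.12 to 3.28 in DKO. Hmgn2, a nucleosome-binding protein 13 genes away whose probe was saturated on 1 array, differed by 1.41, Runx3, a regulator of CD8 T cells 10 genes away on the other side, by 1.23, and Rpl11, 29 genes away, by -1.17. Ubxn11, Hmgn2, Runx3 and Rpl11 did not overlap between genotypes. Of the 60 Stmn1 neighbours 7 did not overlap, against 0.764% of all genes higher and 0.278% lower without overlap. The stathmin knockout read 1.54, 1.23 and 0.45 for Ubxn11, Hmgn2 and Runx3 against WT, and the p27 knockout, with its dimmer arrays, -0.99, -0.67 and -1.17. For each of these genes the dim WT replicates 4 and 6 were the lowest of WT.

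**Figure D3:**
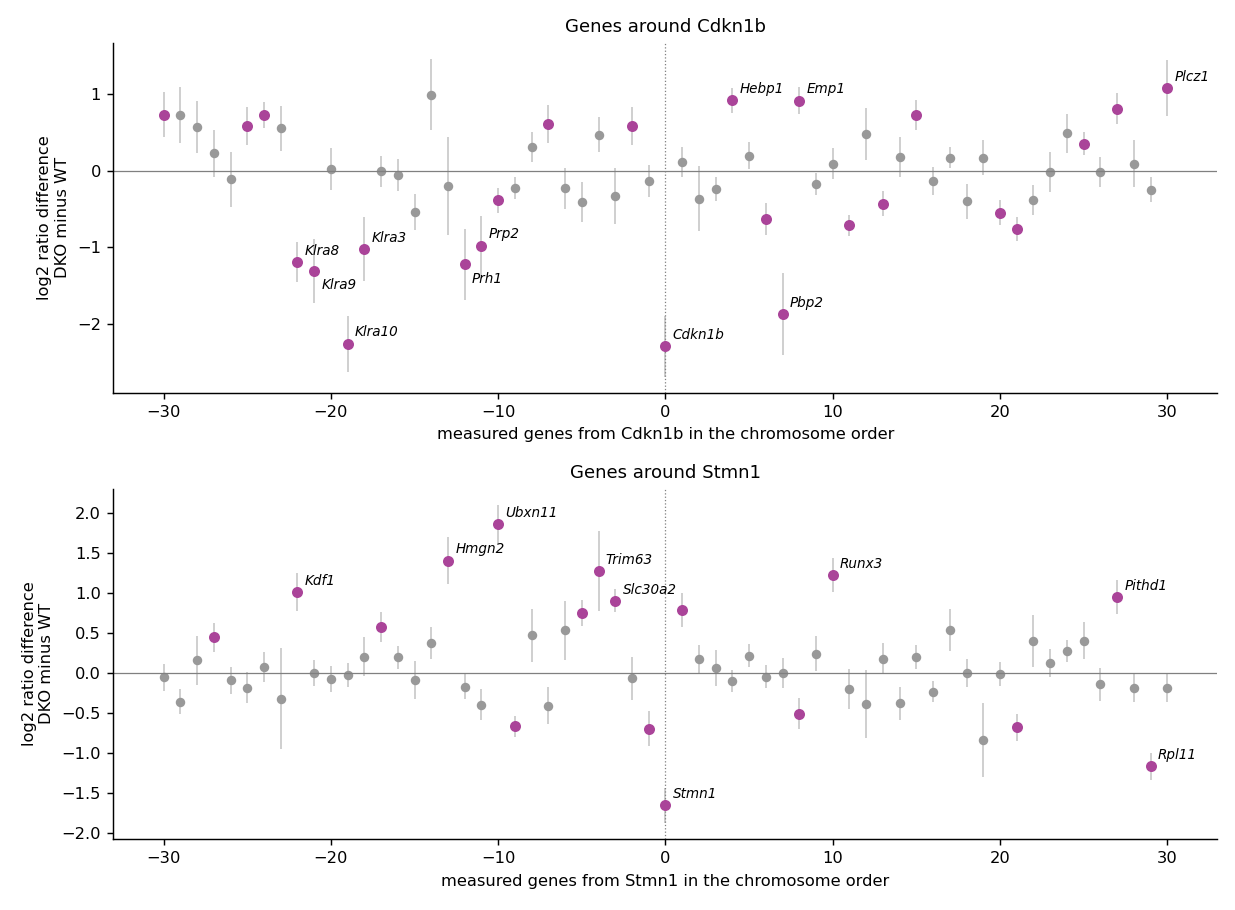
Difference of log2 ratios, DKO minus WT, with its SE (vertical axis) for the 30 measured genes on each side of Cdkn1b and Stmn1, by order along the chromosome (horizontal axis); purple points have an unadjusted p under 0.05. Purple points lie on both sides of 0 around both genes, 24 of 60 neighbours around Cdkn1b and 16 of 60 around Stmn1.

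The Klra genes encode the Ly49 receptors of natural killer cells. Some, Klra8, Klra9 and Klra10 among them, lie in a cluster on the side of Cdkn1b shown at negative order. Others, Klra12, Klra15, Klra16 and Klra18 among them, were not among the neighbours placed there. The Klra genes were taken as a group after their values were seen, and their near-identical copies may share probe signal. Of 18 Klra genes tested, 6 read higher and 4 lower at an unadjusted p under 0.05, against 5.66% and 4.71% of all genes. Under the block 0 passed, and without it Klra16 alone did, as higher (adjusted p = 0.0263). Klra10 read 3.94, 3.94, 3.54, 2.27, 3.19 and 3.23 in WT replicates 1 to 6 and 0.70, 3.37, 0.09, 0.66, 0.56 and 1.17 in DKO. DKO replicate 2 thus stood within the WT range and the other 5 DKO mice below it. The difference was -2.26 ± 0.37 (SE, adjusted p = 0.178), and -2.60 without slide 2 (adjusted p = 0.189). Klra10 was well above background on 6 WT and 3 DKO arrays, so the size of its difference rests partly on dim readings. Klra9 showed the same order, with 3.71 in DKO replicate 2, 0.79 to 2.49 in the other DKO mice and 2.80 to 4.35 in WT, and Klra8 read 2.79 in that mouse, 0.79 to 2.09 in the others and 2.54 to 3.28 in WT.

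Klra15 and Klra16 read higher in DKO, and there the same mouse was the lowest of its group. Klra15 read -1.10 in DKO replicate 2 and -0.31 to 1.08 in the other 5 DKO mice, against -1.84 to -0.61 in WT. Klra16 read 3.30 there, 3.55 to 4.85 in the other DKO mice and 0.92 to 2.59 in WT (difference 2.28 ± 0.40). In 9 of the 10 Klra genes at an unadjusted p under 0.05, DKO replicate 2 was the DKO array nearest the WT mean. The same held for 12 of the 24 Cdkn1b neighbours, 2 of the 16 Stmn1 neighbours and 12.5% of all 2197 genes at that p. The 24 Cdkn1b neighbours include some of these Klra genes, Klra10 and Klra8 among them, so the counts overlap. In the p27 knockout Klra10 and Klra8 read -2.82 and -1.82 against WT, and in the stathmin knockout 0.91 and 0.29.

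**Figure D4:**
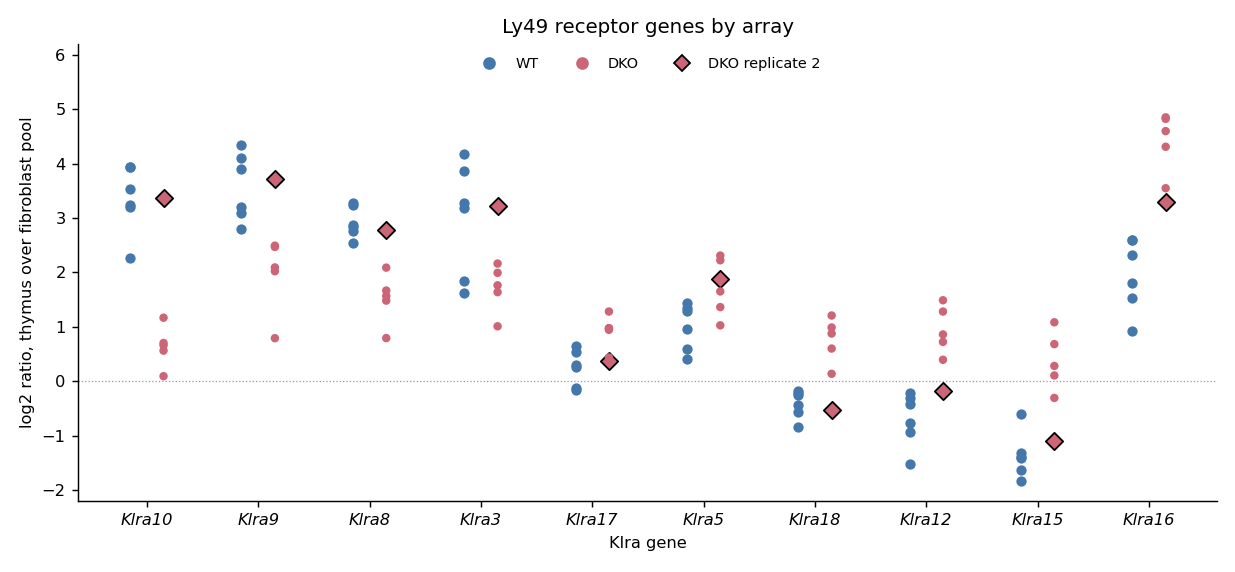
Log2 ratio of thymus over fibroblast pool (vertical axis) in every WT (blue) and DKO (red) mouse for the 10 Klra genes with an unadjusted p under 0.05; the black-edged diamond is DKO replicate 2. For Klra10 the diamond, at 3.37, lies among the WT mice while the other 5 DKO mice lie at 0.09 to 1.17.

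Gene lists are given next by their counts and medians, with no test over a list, beside the median of all genes, which was -0.03 with 46.2% of genes above 0. Counts at an unadjusted p under 0.05 stand against 10.4% of all genes, and a share near that is no result about a list. The median of all genes was 0.10 in the p27 and -0.02 in the stathmin knockout against WT. No list member passed over all genes with slide as a block. In whole tissue, fewer cells of a type and less RNA per cell cannot be told apart.

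Interferon-stimulated genes, which restrict viruses downstream of the interferon receptors, read higher in DKO. Of 25 measured, 23 were above 0 and 11 had an unadjusted p under 0.05, all 11 higher, and the median difference was 0.37. Their promoters are known for a shared element bound by the STAT and IRF factors. The motif sought was a pair of GAAA with 2 bases between them, or a pair of TTTC on the other strand, within 250 bases before the start. RefSeq promoters of build GRCm38.p6 were found for 19 members, of which 10 held it. Per promoter, the motif occurred in 43.5% of the list's 23 and in 2.98% of all 32851 RefSeq promoters over the same window. Per gene, the shares were 52.6% of the list and 3.46% of all genes with a promoter. Of the 11 members at an unadjusted p under 0.05, 8 had a promoter there and 3 of these held the motif. That is 37.5% per gene, a smaller share than in the whole list, and none of the 3 passed after adjustment. For these 3, 100 bases are shown 5′ to 3′ on the gene's strand with the motif in capitals.
Oas1a: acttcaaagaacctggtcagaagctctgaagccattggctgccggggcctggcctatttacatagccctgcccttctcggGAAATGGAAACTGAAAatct
Ifit1: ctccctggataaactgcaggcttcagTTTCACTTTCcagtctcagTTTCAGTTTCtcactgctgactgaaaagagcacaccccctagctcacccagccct
Rsad2: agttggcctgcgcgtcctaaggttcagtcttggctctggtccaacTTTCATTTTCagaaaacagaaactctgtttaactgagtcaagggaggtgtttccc
The Oas1a stretch lies at chr5:120907526-120907625 on the minus strand and ends at the base before the start, with overlapping matches. The Ifit1 stretch lies at chr19:34640759-34640858 on the plus strand and the Rsad2 stretch at chr12:26456518-26456617 on the minus strand. The arrays measured RNA and no binding, so the letters describe the sequence only.

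Oas1a, an activator of RNase L, Ifit1, which binds foreign RNA, and Rsad2 (viperin) differed by 0.55, 0.59 and 0.67. The members with the lowest p were others. Isg20, an exonuclease, read 1.85 to 2.93 in WT (median 2.30) and 3.06 to 3.58 in DKO (median 3.40), without overlap. Its difference of 1.00 ± 0.19 (SE) did not pass with the block (adjusted p = 0.197) and passed without it (adjusted p = 0.0491). Irf7, the factor that amplifies the response, differed by 1.07 ± 0.22 and Ifih1, a sensor of viral RNA, by 0.61 ± 0.16 (adjusted p = 0.215 and 0.277), each higher on 6 of 6 slides. The list's median per array was -0.63 to -0.03 in WT and -0.23 to 0.26 in DKO. It was above 0 on 5 of 6 slides and above 0 under all 23 alternatives, from 0.28 to 0.48. The single knockouts had medians of 0.17 (stathmin) and 0.11 (p27) against WT.

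Of 19 measured genes of antigen presentation, 17 were above 0 and 4 had an unadjusted p under 0.05 (median 0.23). Psmb10, an immunoproteasome subunit, read 1.29 to 1.81 in WT and 1.90 to 2.24 in DKO without overlap, and Ciita, the regulator of class II genes, differed by 0.74 (0.46 without slides 4 and 6). This list's median was -0.12 at the lowest of 23 alternatives and was positive under the other 22.

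Epithelial lists had the highest medians that kept 1 sign on all slides. For cortical epithelium, 16 of 18 genes were above 0 and 9 had an unadjusted p under 0.05, all higher, with a median of 0.56. Foxn1, the master regulator of thymic epithelium, read 0.76 to 2.16 in WT (median 1.73) and 2.32 to 3.41 in DKO (median 2.63). Its groups did not overlap (difference 1.07 ± 0.23 SE, adjusted p = 0.237 with the block and 0.107 without). Ly75, an endocytic receptor, differed by 0.81 and Ctsl, the protease that makes peptides for CD4 selection, by 0.85. Psmb11, the proteasome subunit found in cortical epithelium, stood at -0.01 and Prss16, its serine protease, at 0.19. These 2 were named after their values were seen. The list's median per array ran from 2.06 to 2.72 in WT and 2.75 to 3.66 in DKO, so every DKO array was above every WT array.

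For medullary epithelium and self-antigens, 14 of 18 genes were above 0 and 7 had an unadjusted p under 0.05, all higher, with a median of 0.70. Csn2, a milk casein displayed as a self-antigen, read 1.85 to 4.45 in WT (median 3.48) and 4.94 to 6.31 in DKO (median 5.50). Every DKO mouse exceeded every WT mouse, at a difference of 2.19 ± 0.43 (SE, adjusted p = 0.199 and 0.0761 without the block). Fezf2, which directs self-antigen genes, differed by 1.32 ± 0.23 (adjusted p = 0.178), and Trpm5, a taste-pathway channel of tuft cells, by 1.04 ± 0.24 (adjusted p = 0.240). Aire, named after its value was seen, differed by 0.83 (adjusted p = 0.333), while Krt5 and Krt14, keratins of the same cells, stood at 0.13 and 0.17.

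Both epithelial medians were above 0 on 6 of 6 slides and under all 23 alternatives. Without slides 4 and 6 they were 0.48 (cortical) and 0.36 (medullary). In the stathmin knockout they were 0.37 and 0.32 and in the p27 knockout -0.30 and -0.08, against the same WT arrays. Tuft cell genes, a list written after values were seen, had a median of 0.41, with 9 of 12 above 0, and Gnb3, a taste-signalling subunit, read 0.31 to 0.94 in WT and 1.11 to 1.84 in DKO. Of the tuft genes, Dclk1 and Chat stood at -0.10 and -0.23.

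Blood cell lists read in both directions. Of 10 erythroid genes 9 were above 0, with a median of 0.40 that was positive on 6 of 6 slides, and Slc4a1, the anion exchanger of red cells, differed by 0.77 and the haem-synthesis enzyme Alas2 by 1.33. Without slides 4 and 6 these were 0.64 and 0.63, and the list's median 0.40. Of 16 neutrophil genes, a list also written after values were seen, 12 were below 0, with a median of -0.44 that was negative on 6 of 6 slides, from -0.73 to -0.31. That median was -0.13 with the Cy5 channel alone and also in the authors' deposited table, where the median of all genes was 0.20. S100a9 and S100a8, which form calprotectin, differed by -1.17 and -0.88 and the antimicrobial peptide gene Camp by -1.14, while the protease Mmp9 stood at 0.79. The neutrophil medians of the arrays overlapped between genotypes, at -1.19 to 0.06 in WT and -0.88 to 0.15 in DKO. Macrophage and myeloid genes had a median of 0.32 with 15 of 18 above 0. At an unadjusted p under 0.05, 5 of them read higher, the complement gene C1qa at 0.70 among them, and 3 lower, with S100a9 lowest at -1.17. Dendritic cell genes had a median of 0.24 with 14 of 16 above 0, with the chemokine Ccl22 at 1.23. Without slides 4 and 6 the macrophage and dendritic medians were 0.20 and 0.07, and Ccl22 stood at 0.79.

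All 18 endothelial genes were above 0, with a median of 0.59. Sox17, an arterial regulator, read 1.07 to 2.48 in WT and 2.50 to 3.51 in DKO, and its difference of 1.19 was 0.70 without slides 4 and 6. The list's median was 0.18 without slides 4 and 6 and was above 0 on 4 of 6 slides. Muscle genes had list medians of 4.57 in WT replicate 5, 5.20 in DKO replicate 2 and 4.93 in DKO replicate 4, and -0.26 to 1.29 on the other 9 arrays. Their difference of 0.98 ran from -2.58 to 4.90 over slides and was 0.08 without slides 4 and 6. White adipocyte genes had a median of 0.37, and -0.06 without those slides. Lymph node stroma genes had per-array medians of 0.61 to 4.38 in WT and 1.36 to 3.67 in DKO. The part of these neighbouring tissues in the other differences was not tested.

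The medians of the double-positive and T cell receptor lists were below 0 over all slides and above 0 without slides 4 and 6. Of 20 double-positive genes, 16 were below 0 and 0 had an unadjusted p under 0.05, with a median of -0.21 that turned to 0.12 without slides 4 and 6. Rag1 and Dntt, which cut and extend antigen receptor genes, read -0.55 and -0.56, with WT replicates 4 and 6 highest, at 8.37 and 8.58 for Rag1 against 6.78 to 7.53 in the other WT mice. T cell receptor signalling genes had a median of -0.16 with 24 of 30 below 0, turning to 0.10 without those slides. For mature and regulatory T cells 14 of 18 genes were above 0 (median 0.17), and Itgae, the integrin CD103, read 0.63 to 2.77 in WT and 2.78 to 3.78 in DKO, at a difference of 1.42 ± 0.32 (SE, adjusted p = 0.239). Of 18 genes of early thymocytes and the Notch pathway, 4 read higher and 1 lower at an unadjusted p under 0.05, with a median of 0.11 that kept its sign in 17 of 23 alternatives. The Notch targets Dtx1 and Nrarp stood at 0.62 and 0.93 (0.52 and 0.39 without slides 4 and 6) and the transcription factor gene Erg at -0.52. Of 19 natural killer and cytotoxic genes, 4 read higher and 4, all in the Klra family, lower at that p. The median of 0.34 was 0.01 without slides 4 and 6, and Gzmb (granzyme B) went from 1.14 to 0.68.

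**Figure D5:**
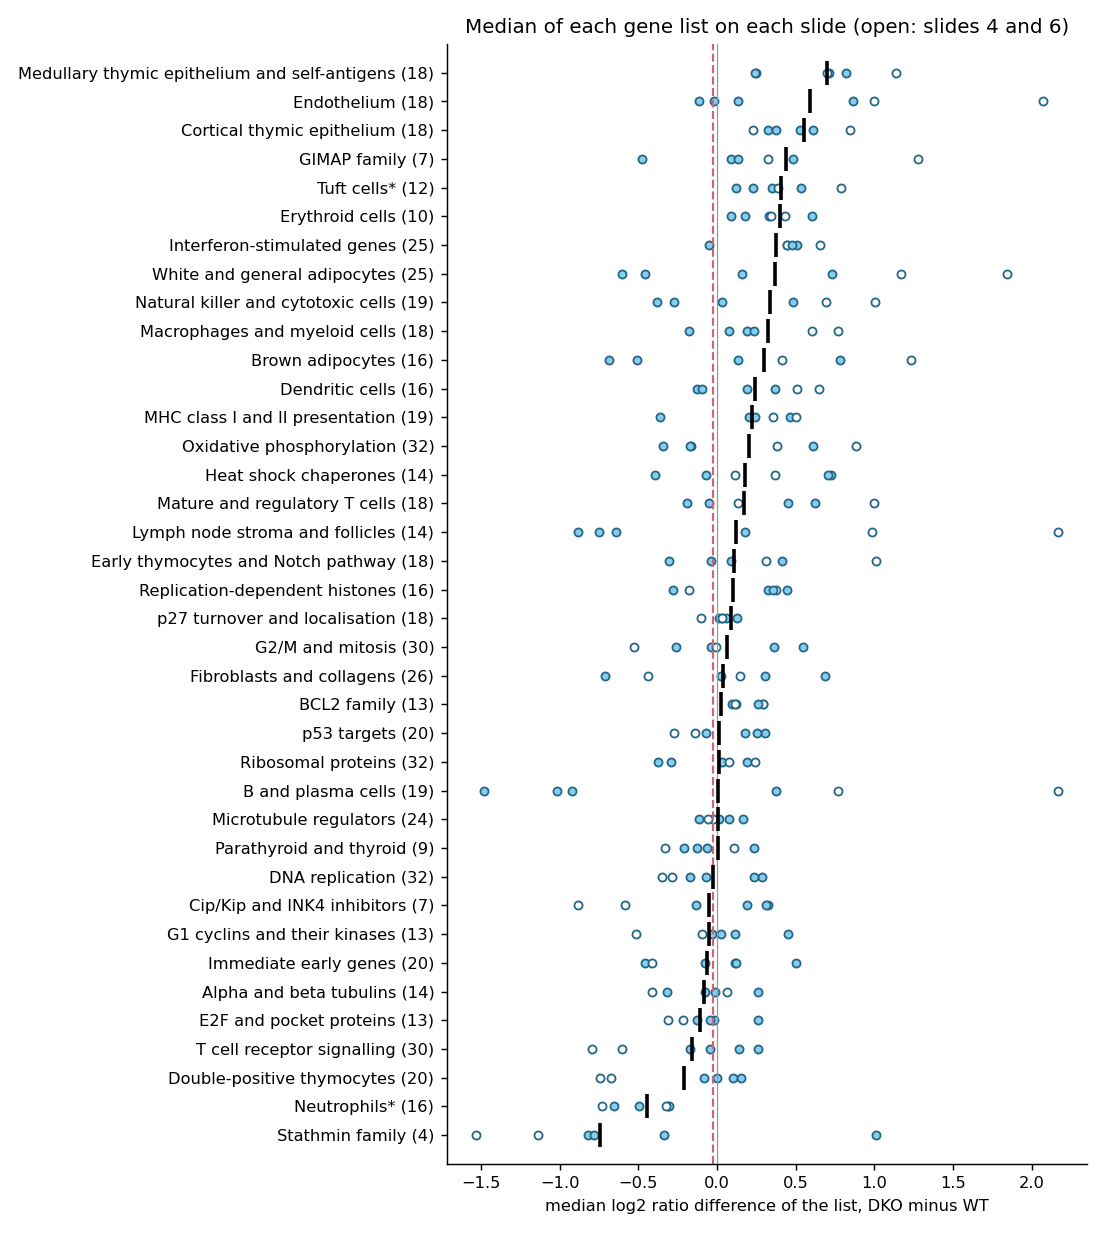
Median difference of log2 ratios, DKO minus WT, of each gene list on each slide (circles, open for slides 4 and 6) and over the fit (black bars); numbers in brackets are genes measured, the dashed line is the median of all genes (-0.03), asterisks mark lists written after values were seen, and skeletal muscle (-2.58 to 4.90) is left out for scale. Both epithelial, tuft, erythroid and BCL2 family circles all lie above 0 and neutrophil circles all below.

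Genes of the cell cycle, on which p27 acts, were close to WT as groups. Of 32 DNA replication genes and 30 of G2 and mitosis, 0 had an unadjusted p under 0.05, with medians of -0.03 and 0.07, each of which changed sign under some alternatives. The per-array medians of the replication genes were 1.01 to 1.44 in WT and 0.94 to 1.55 in DKO, and those of the mitotic genes 0.83 to 1.57 and 0.94 to 1.36, so the genotypes overlapped widely. Mki67, the proliferation marker, read 1.88 to 3.08 in WT and 2.04 to 2.34 in DKO, at a difference of -0.21 ± 0.19 (SE, adjusted p = 0.716). Of 13 G1 cyclins and kinases, Cdk2, a kinase that p27 inhibits, had an unadjusted p under 0.05, at 1.15 ± 0.48 (adjusted p = 0.472). Its values overlapped widely, at -0.75 to 2.34 in WT and 1.40 to 2.97 in DKO. Cdk6 stood at -0.57 and the phosphatase gene Cdc25a at 0.24. Of 13 E2F and pocket protein genes only Tfdp2, a partner of the E2F factors, had an unadjusted p under 0.05, at 0.57.

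Of the other inhibitors of cyclin-dependent kinases, none had an unadjusted p under 0.05. Cdkn1a (p21) stood at -0.02, Cdkn1c (p57) at 0.26 and Cdkn2a at -0.36. The 18 genes of p27 turnover and localisation had a median of 0.09, with 0 at that p. Of the BCL2 family 4 of 13 genes had an unadjusted p under 0.05, all higher: Bik at 0.85 (0.54 without slides 4 and 6), Pmaip1 at 0.60, Bok at 0.59 and Bax at 0.35. The other members ran down to -0.49 for Bmf, and 6 of 13 were below 0. The median of that family was 0.03 over the fit and 0.10 to 0.29 by slide, and 2 of the 20 p53 targets read higher and 1 lower at that p. Replication-dependent histones had 3 of 16 genes higher at that p, with a median of 0.10.

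Genes of microtubules, on which stathmin acts, showed few differences. In the stathmin family Stmn4 stood at -1.08 (unadjusted p under 0.05, adjusted p = 0.472) and at -0.30 without slides 4 and 6, Stmn2 at -0.41 and Stmn3 at 0.41. Of 14 alpha and beta tubulins, Tubb5 (beta tubulin) had an unadjusted p under 0.05, at -0.48, with WT ratios of 1.21 to 1.66 and DKO ratios of 0.38 to 1.45. Of 24 microtubule regulators 2 read higher at that p, Map7 at 0.80 and Map2 at 0.53 (0.32 without slides 4 and 6). Genes of oxidative phosphorylation had a median of 0.21 with 30 of 32 above 0 and 0 at an unadjusted p under 0.05, and the median was 0.02 without slides 4 and 6. Ribosomal protein genes had a median of 0.01, with Rpl11 as the only 1 of 32 at that p. Heat shock chaperones had a median of 0.18 with 13 of 14 above 0, and the only member at that p was the lower Hsp90b1, at -0.38. Immediate early genes had a median of -0.06, with Egr1 at -0.58.

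The named genes differed in how they read in the single knockouts, which share the WT arrays with the comparison above. Grp, Adamdec1 and Alox15 read 1.23, 0.91 and 0.99 in the stathmin knockout and -0.14, -0.17 and -0.36 in the p27 knockout. Tfpi, Adam12 and Tox3 read -0.98, -0.81 and -0.99 in the stathmin knockout and 0.19, -0.21 and 0.03 in the p27 knockout. No gene passed in either single knockout against WT with slide as a block (0% of 21193 genes, with 6.79% at an unadjusted p under 0.05 in the stathmin and 12.1% in the p27 knockout). The double knockout against the stathmin knockout also passed 0 genes (2.54% at an unadjusted p under 0.05), with Grp at 1.05 (adjusted p = 0.975). Against the p27 knockout limma passed 3407 genes (16.1%), Grp among them at 2.42 (adjusted p = 0.0177). The p27 knockout arrays were dimmer, at 19.4 to 170.6 kilo-units. The part of brightness in those calls, and in the p27 knockout values against WT above, was not tested.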

How the data were processed

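The 12 arrays were scanned and the authors deposited the intensity of each spot and its local background. The software was Agilent Feature Extraction, release 9.1.3.1 by the file headers, and its deposited log10 ratios were already dye-normalized. No source used here says how the authors made the deposited table of log2 values. It followed spot brightness (correlation at least 0.980) and not the ratio (at most -0.03), so it served as an alternative only, with centring unknown.

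From the intensities, limma 3.58.1 in R 4.3.3 gave log2 ratios after normexp (offset 50) and loess within each array. Outlier spots were dropped (71 per array on average). Probes needed Cy5 well above background on 6 of 12 arrays, and the brightest stood for its gene. The names of 22951 probes came from RefSeq accessions of assembly GRCm38.p6 and 18223 from the file. Of 6445 genes with several probes, 2920 had probes of differing sign. limma's moderated test used the 12 arrays with slide as a block, and p-values were adjusted over all genes by Benjamini and Hochberg's method (threshold 0.05), and was tested on simulated data. A probe not well above background on any array of a group has only a lower bound of its fold, which rests on 1 channel and can carry dye bias, as no array had its dyes swapped.

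Same-numbered WT and DKO arrays share a slide, per the file headers. Their deviations from the group means correlated by -0.36 to 0.20, over 0.1 on 3 of 6 slides. The mean was 0.008, against -0.006 for WT and DKO arrays of different slides. Only 1 of 6 WT arrays correlated best with the DKO array of its own slide. The labels name separate mice. With slide as a block, p-values measure the spread of the DKO minus WT differences between slides. Without the block they measure the spread between mice of a genotype. Named genes were Cdkn1b, Stmn1, 12 genes each way (passing ones first, then by lowest p at a difference of at least 1 and 1 sign on all slides, without predicted or clone names), the 3 members of each list with the lowest p and passing neighbours. Members, 38 lists and tests were chosen with earlier results of these data known, and the tuft and neutrophil lists, like the other genes the text names, after the values were seen. Other normalizations, filters, models and sets of arrays were tried, 15 of them listed at the outset.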

Additional observations from a re-analysis of the deposited data

Results flagged for a closer look

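Of 348 groups of 6 arrays examined, 26 had 1 array farther from its neighbours than the range of the others allows by Dixon's criterion, where chance flags about 1 in 20. On chromosomes 6 and 4, Klra10 stood at 3.37 in DKO replicate 2 against 0.09 to 1.17 in the other DKO mice, and Rpl11 at 1.34 in DKO replicate 6 against 0.43 to 0.74. AK032599 stood at 2.35 in WT replicate 6 against 0.55 to 1.10.

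In DKO, Calcb was lowest in replicate 4 at 1.66 and Alox15 highest in replicate 2 at 3.06, with Cenpe at 0.96 there. DKO replicate 1 was highest for Tap1 at 3.77, Flt3 at 2.95 and Ermap at 1.77, and lowest for Nfatc2 at -0.87 and Jchain at 4.67. Stmn4 was lowest in replicate 5 at -2.86 and Ltb in replicate 4 at 3.87. In WT, replicate 4 was highest for Ccnb2 at 1.01 and lowest for the histone gene H3c1 at -0.090 and for C1qa at 0.085. WT replicate 5 was lowest for Egr1 at -1.52, Ptprc at 7.04 and Dio1 at 2.48, and Pth was highest in WT replicate 6 at 7.24.

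List medians stood apart in WT replicate 5 for skeletal muscle at 4.57, in WT replicate 4 for neutrophils at -1.19, and in WT replicate 6 for p53 targets at -0.33. They also stood apart in DKO replicate 3 for p53 targets at -0.43 and for natural killer and cytotoxic cells at 1.55, and in DKO replicate 2 for microtubule regulators at -0.42.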

How the results depend on the processing

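With slide as a block 0 genes were higher and 1 lower, and the count depended on the block: no replicate block gave 39 and 8, slide as a random block 53 and 9. The lower count was 0 with the spread of all 24 arrays, with Agilent's log ratios, with probes well above background on all 12 arrays and, an alternative chosen after seeing the data, without slides 4 and 6. It was 2 with array weights, 3 with the mean of a gene's probes and 3 with probes in place of genes (added). The authors' deposited table gave 1 higher and 11 lower. No block without WT replicates 4 and 6 (added) gave 2 higher and 1 lower. Leaving out replicates gave 0 to 1 lower and 0 higher. In the other alternatives both counts stayed at 0 and 1. The cause was not tested, apart from the smaller number of genes or arrays in some fits. Cdkn1b probe A_51_P146126 stood at -2.30 in the random block and passed (adjusted p = 0.0390). Stmn1 probe A_51_P495641 and Rpl11 turned to 0.084 and 0.23 in the authors' deposited table, which follows brightness. In that table the median difference of all genes was 0.20, so values there are shifted upward. Stmn1 probe A_52_P319161 passed in every fit. Over all alternatives, list medians moved by more than their spread between slides 22 times, 12 of them in the deposited table. Calls of the other named genes and probes were gained 38 times and lost 9 times against the main fit. Genes at an unadjusted p under 0.05 went from 2197 to 823 without slides 4 and 6.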

Other observations

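Parathyroid and thyroid genes differed among themselves. The deiodinase gene Dio1 read 2.48 to 3.56 in WT and 3.75 to 4.91 in DKO without overlap (difference 0.96, limma adjusted p = 0.338), and Calca, of calcitonin and its related peptide, stood at 0.82. Pth, parathyroid hormone, stood at -0.93, with 5.01 to 7.24 in WT and 3.54 to 6.09 in DKO. Of 9 such genes measured, 2 read higher and 3 lower at an unadjusted p under 0.05.

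A gene outside the lists, named after its value was seen, passed only without the slide block. The interferon-inducible Ifi202b differed by 1.36 (limma adjusted p = 0.0263).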
